A study of Homo sapiens with 2 samples.

Results

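Complex II, or succinate dehydrogenase, is the only enzyme that belongs both to the tricarboxylic acid (TCA) cycle and to the respiratory chain. SDHA carries the flavin and oxidises succinate to fumarate, SDHB passes the electrons along its iron-sulphur clusters, and SDHC and SDHD anchor the complex in the inner mitochondrial membrane, where ubiquinone is reduced. SDHAF2 is needed to attach the flavin to SDHA, SDHAF4 binds flavinated SDHA before it joins SDHB, and SDHAF1 and SDHAF3 help SDHB to receive and keep its clusters. All of these proteins are encoded in the nucleus, so the promoters of their genes are where a nuclear factor such as NRF-1 can act on the complex. NRF-1 binds as a dimer to a palindromic, CpG-rich site and is known for its targets among genes of mitochondrial proteins.

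The genes examined were the 4 subunit genes and the 4 assembly factor genes named above, 8 of 19794 protein-coding genes. They were listed by function, with earlier results of these data already known. NRF-1 binding came from ChIPmentation, in which transposase adds the adapters to immunoprecipitated chromatin, in U251, a human glioblastoma cell line. One group received a control siRNA (siControl) and the other an siRNA against AATF (siAATF), a transcriptional cofactor that the study examined as a partner of NRF-1; both were immunoprecipitated with the same NRF-1 antibody, and 1 peak list per group was analysed. The design text of the series names a different line, U138, while the labels of both samples name U251. The siControl list had 18014 peaks and the siAATF list 18454. The read depth is unknown, no control library was named for either list, and neither the knockdown nor the identity of the cells can be checked from peaks. With 1 list per group there is no replicate spread and no test between the groups, so each difference below is one between these libraries and the effect of AATF depletion cannot be told apart from other differences between them.

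A promoter was taken as 1 kb on either side of any protein-coding transcript start in GENCODE on hg19. Fold enrichment is the ratio of a peak's signal to the local background of its own library, and −log10 q is the significance that the peak caller gave it. Since both depend on the library, peaks are placed by percentile rank among the peaks of the same list, where 100 is the strongest and 0 the weakest. Distances are in bp from the canonical transcript start along the direction of transcription, with the start itself at 0.

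Every complex II gene had exactly 1 promoter peak in siControl and 1 in siAATF, and in all 8 cases the peaks of both lists overlapped. Among all coding genes a promoter peak was found for 61.1% in siControl, for 60.7% in siAATF, and in both lists with overlap for 58.6%. All 8 pairs also reached a −log10 q of 5 or more in each list, as did 49% of coding genes. The peak contained the canonical start in 8 of 8 genes in each list, beside 83.7% (siControl) and 84.8% (siAATF) of the coding genes that had a promoter peak. It covered the whole of exon 1 in 7 of 8 genes in each list, beside 66.3% and 66.2%. The exception was SDHAF1, whose only exon runs from 36486090 to 36487214 on chromosome 19 and outlasts the peak. None of the 8 genes had a further peak within its body in either list, which was also the case for 86.3% (siControl) and 84.9% (siAATF) of these coding genes.

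The sequence under these peaks differed between the genes and is shown first, because the strength of the peaks is best read beside it. The NRF-1 core was searched as the palindrome formed by GCGCA directly followed by its reverse complement, TGCGC, so that both strands give the same word. Up to 1 mismatch was allowed. The siControl peaks of 5 of the 8 genes held such a core, as did 24.2% of the 12095 coding genes with a siControl promoter peak. The exact core occurred at SDHD alone among the 8, against 3.95% of those coding genes. Each line below gives 30 bases along the gene's strand, on hg19, with the core in capitals.
SDHD, chr11:111957477-111957506, plus strand: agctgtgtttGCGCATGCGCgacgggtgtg
SDHB, chr1:17380710-17380739, minus strand: gaagccaaatGGGCATGCGCcgctactgcg
SDHAF3, distal, chr7:96746792-96746821, plus strand: ccacgacgagGCGCAGGCGCgactccacga
SDHAF3, proximal, chr7:96746992-96747021, plus strand: ccgtccctctGCGCAGGCGCagtcggcggt
SDHAF4, chr6:71276602-71276631, plus strand: ctactgctttGCGCCTGCGCggaggctcgg

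Written with the base of the palindrome first, then the position counted from 1 at the 5′ end of the core as read along the gene's strand, then the base found, the SDHB core carries C2G, both SDHAF3 cores carry T6G and the SDHAF4 core carries A5C. Read on the other strand, A5C is T6G, so SDHAF3 and SDHAF4 share 1 word, and SDHA holds it as well. That word was present in 10.1% of coding promoter peaks in siControl, whereas the SDHB word was present in 0.943% of them. The SDHD core lay at −110 to −101, only 1.5 bp from the midpoint of the siControl peak. The SDHB core lay at −202 to −193, the SDHAF4 core at −21 to −12, and the SDHAF3 cores at −208 to −199 and at −8 to 1.

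SDHA carried a tandem array. Its T6G word occurred 4 times upstream of the start, at −166, −117, −68 and −19 (5′ ends), each 49 bp from the next. Only 0.38% of coding genes with a siControl promoter peak (46 genes) had 4 or more cores with up to 1 mismatch in that peak. The units below show the repeat on the plus strand of chromosome 5, each from the first base of the core, in capitals, up to the next core, or up to the last base before the start in unit 4.
SDHA unit 1, chr5:218269-218317: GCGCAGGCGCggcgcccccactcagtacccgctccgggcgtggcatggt
SDHA unit 2, chr5:218318-218366: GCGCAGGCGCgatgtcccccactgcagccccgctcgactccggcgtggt
SDHA unit 3, chr5:218367-218415: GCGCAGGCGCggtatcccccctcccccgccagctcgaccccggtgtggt
SDHA unit 4, chr5:218416-218434: GCGCAGGCGCagtctgcgc

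Compared base by base without gaps, unit 2 had 28 and unit 3 had 30 of 49 bases in common with unit 1. Both counts include the core, and bases shared at a shifted position count as differences. Units 2 and 3 were not compared with each other. The core and its period were kept, and how well the sequence between the cores was kept was not measured further.

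SDHC, SDHAF1 and SDHAF2 had no core with up to 1 mismatch in the peak of either list. The best word in the SDHC and SDHAF2 peaks had 2 mismatches and the best in the SDHAF1 peak had 3. At SDHAF2 one such word, with G1C and C2G, lay at −98 to −89 and overlapped a copy of the ETS word described further on; it is in capitals in the first line below. A word with up to 2 mismatches was present in 67.6% of coding promoter peaks in siControl. The next lines give the 120 bases before the start of SDHC and of SDHAF1, promoters with a peak but without the core. Each match to GGGCGG, the SP1 word, or its reverse complement is in capitals.
SDHAF2, chr11:61197488-61197517, plus strand: ccgccacttcCGGCATGCGCagggacgcac
SDHC, chr1:161284051-161284170, plus strand: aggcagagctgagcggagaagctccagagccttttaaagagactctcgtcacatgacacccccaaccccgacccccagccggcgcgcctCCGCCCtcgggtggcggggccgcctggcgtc
SDHAF1, chr19:36485970-36486089, plus strand: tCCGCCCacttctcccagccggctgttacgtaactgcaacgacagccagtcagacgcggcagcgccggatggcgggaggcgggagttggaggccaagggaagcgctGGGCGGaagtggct

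**Figure D1:**
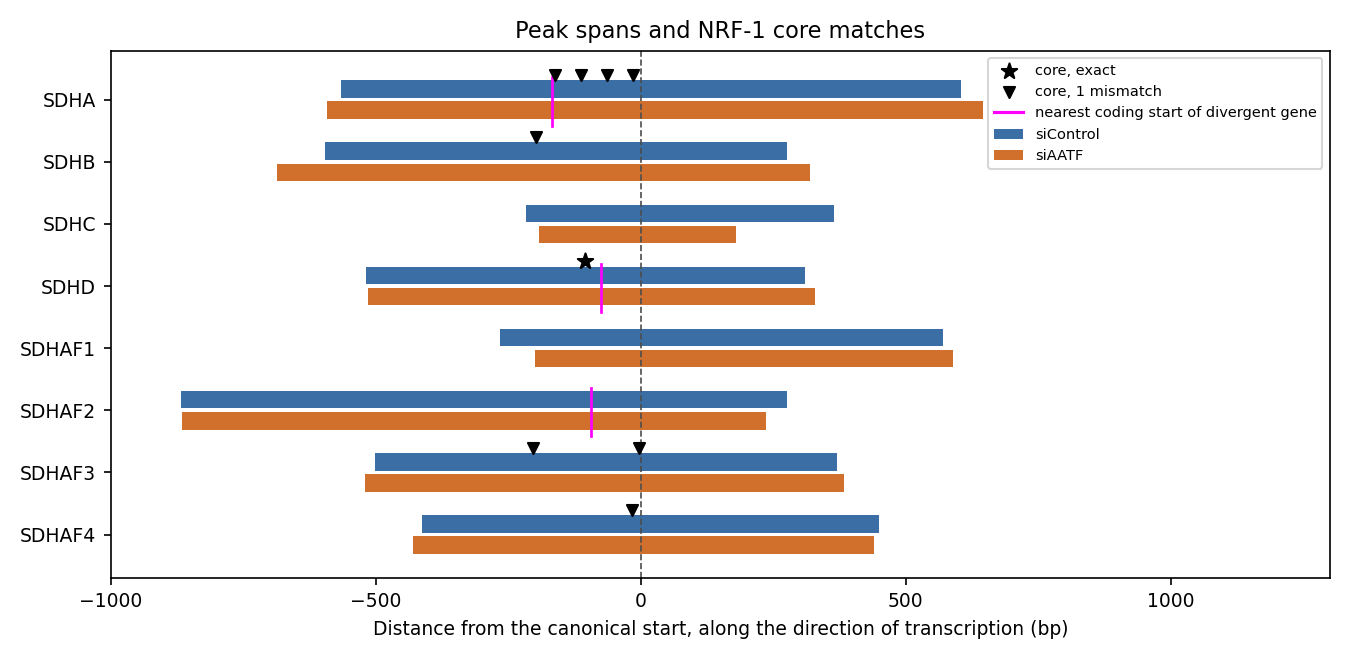
Horizontal bars span the promoter peak of each gene in siControl (blue) and siAATF (orange), in bp from the canonical start along the direction of transcription. Black marks are NRF-1 cores in the siControl peak (star, exact; triangle, 1 mismatch) and magenta lines the nearest coding start of a named gene on the opposite strand. All 16 bars cross the start, SDHA shows 4 evenly spaced triangles, and SDHC, SDHAF1 and SDHAF2 show none.

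The catalytic subunits came first. SDHA (chromosome 5, start at 218435) had a peak from 217870 to 219040 in siControl and from 217843 to 219080 in siAATF. With a −log10 q of 103 in siControl and of 88.8 in siAATF, it was peak number 25 of 18014 and number 57 of 18454 by that measure. By fold enrichment the same peak stood lower, with 7.47 and rank 72.8 in siControl and 6.84 and rank 69.7 in siAATF. The SDHA peak was 1171 and 1238 bp wide, the widest of the 8 in both lists. Why its ranks by these measures differed was not tested. SDHB (chromosome 1, minus strand, start at 17380527) had a narrower peak, from 17380251 to 17381123 in siControl and from 17380207 to 17381213 in siAATF. Its fold enrichment was 9.23 (rank 93.3) in siControl and 8.01 (rank 86.1) in siAATF, and its −log10 q was 64.8 and 55.5. SDHB thus ranked above SDHA by fold enrichment and below it by −log10 q in both lists.

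The membrane anchors stood far apart from each other. SDHD (chromosome 11, start at 111957597) had the highest fold enrichment of the 8 genes in both lists, 9.60 (rank 95.9) in siControl and 9.13 (rank 96.3) in siAATF, in peaks from 111957079 to 111957907 and from 111957082 to 111957925. Its −log10 q was 52.4 and 46.8. SDHC (chromosome 1, start at 161284171) had the lowest −log10 q of the 8 in both lists, 8.08 in siControl and 8.87 in siAATF. Its fold enrichment was 6.30 (rank 56.95) and 6.34 (rank 62.2). The SDHC peak was also the narrowest, at 582 bp (161283955 to 161284536) in siControl and 372 bp (161283979 to 161284350) in siAATF. By −log10 q it ranked 45.02 in siControl and 49.01 in siAATF, below the median of all coding genes with a promoter peak, 65.2 and 66.2.

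Among the assembly factors, SDHAF3 and SDHAF4 resembled the stronger subunits. SDHAF4 (chromosome 6, start at 71276633) had a fold enrichment of 9.57 (rank 95.8) in siControl and 9.09 (rank 96.1) in siAATF, with a −log10 q of 70.4 and 62.6, in peaks from 71276221 to 71277082 and from 71276204 to 71277074. SDHAF3 (chromosome 7, start at 96747010) had a fold enrichment of 9.44 (rank 94.9) and 8.82 (rank 94.4) and a −log10 q of 61.9 and 56.1, in peaks from 96746509 to 96747381 and from 96746489 to 96747393. SDHAF2 (chromosome 11, start at 61197596) was intermediate. Its peak, from 61196728 to 61197872 in siControl and from 61196730 to 61197832 in siAATF, had a fold enrichment of 7.55 (rank 74.04) and 7.65 (rank 81.3) and a −log10 q of 48.8 and 47.4. SDHAF1 (chromosome 19, start at 36486090) had the lowest fold enrichment of the 8 in both lists, 5.62 (rank 46.9) in siControl and 6.24 (rank 60.6) in siAATF. Its −log10 q was 11.2 and 15.4, in peaks from 36485825 to 36486660 and from 36485891 to 36486680. SDHAF1, which acts on SDHB, therefore sat next to SDHC at the weak end of the group.

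Over the 8 genes the median rank by fold enrichment was 83.7 in siControl and 83.7 in siAATF, beside 63.2 and 64.3 for all coding genes with a promoter peak in the list. By −log10 q the medians were 87.9 and 88.01, beside 65.2 and 66.2. Ordered by −log10 q, the siControl list gave SDHA, SDHAF4, SDHB, SDHAF3, SDHD, SDHAF2, SDHAF1 and SDHC. In siAATF, SDHB and SDHAF3 changed places, as did SDHD and SDHAF2, and the other 4 kept theirs. Whether neighbours in this order differ cannot be judged without replicates.

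**Figure D2:**
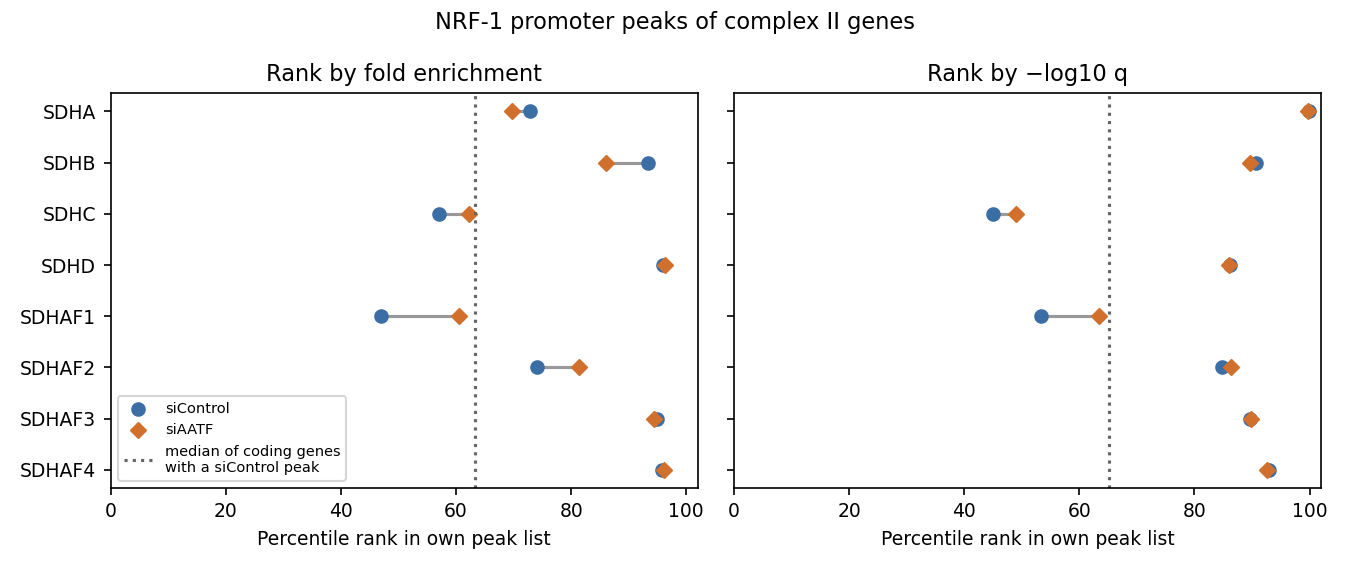
Percentile rank of the promoter peak of each gene in its own list (0 to 100), by fold enrichment on the left and by −log10 q on the right, with siControl as blue circles and siAATF as orange diamonds. The dotted line is the median of coding genes with a siControl promoter peak, 63.2 on the left and 65.2 on the right. SDHC and SDHAF1 lie left of the line in both panels and both lists, and SDHA moves from 72.8 on the left to 99.9 on the right.

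By −log10 q in siControl, and by no other ranking used, the 5 genes with a core all ranked above the 3 without. The 5 ranked from 86.2 to 99.9 and the 3 from 45.02 to 84.8. The classes were close where they met, with SDHD at 86.2 and SDHAF2 at 84.8. The widest gap in the order lay between SDHAF2 and SDHAF1, at 53.3, and both of these lack a core. In siAATF the classes overlapped, as SDHD with the core ranked 86.1 and SDHAF2 without it ranked 86.3. By fold enrichment they overlapped in both lists, as in siControl, where SDHA with its 4 cores ranked 72.8 and SDHAF2 ranked 74.04. The medians by −log10 q in siControl, 90.8 with and 53.3 without the core, lay close to those of all coding genes with a siControl promoter peak, 91.4 for 2933 genes with a core and 55.8 for 9162 without. By fold enrichment the medians were 94.9 and 56.95 in complex II and 79.6 and 56.1 in all coding genes. These are descriptions over a few genes, and the classes also differed in base composition. The median GC content of the siControl peaks was 59.4% in the 5 genes with a core and 68.1% in the 3 without, against 64.7% and 68.6% in all coding genes. Single genes went against these medians, as SDHA with 4 cores had the highest GC content of the 8, 69.4%, and SDHC without a core had 61.0%, near the 60.5% of SDHB with one. Width differed between the classes too. The median siControl peak was 1009 bp wide with a core and 784 bp without in all coding genes, and 873 and 836 bp in complex II. The parts of base composition and of width in the ranks were not tested.

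Other promoter words were counted in the same siControl peaks, on both strands. The ETS word CCGGAAG, bound by factors such as NRF-2 (GABP), was found at SDHB, SDHD, SDHAF2 and SDHAF3, 4 of 8 genes against 29.2% of coding promoter peaks. SDHAF2, the strongest peak without an NRF-1 core, held 4 copies of it, at −250 to −244, −102 to −96 and −78 to −72 on the opposite strand and at −20 to −14 on its own strand. The YY1 word AAGATGGC was found just past the start at SDHB (10 to 17) and SDHC (22 to 29), 2 of 8 genes against 8.46%. The SP1 word GGGCGG was present in 7 of 8, with SDHD as the exception, against 92.5%, and CCAAT was present in 1 of 8, SDHAF1, against 50.8%. The ETS and SP1 words can overlap other G-rich words, and a match is a stretch of letters, not a shown site.

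Some of these peaks also lie at the start of another gene. In 3 of 8 genes the siControl peak contained a coding start of another gene, beside 22% of coding genes with a siControl promoter peak. SDHD faces TIMM8B, which encodes a small chaperone of the mitochondrial intermembrane space, with coding starts on the opposite strand at −117 and −75. The exact core at −110 to −101 therefore lies upstream of the canonical SDHD start and of the TIMM8B start at −117, and inside the TIMM8B transcript that starts at −75. SDHA faces CCDC127, whose nearest coding start at −167 abuts the first unit of the tandem array, so all 4 cores sit between that start and the canonical start of SDHA. The most upstream coding start of SDHA, at 218418, lies inside the last core, which spans 218416 to 218425. SDHAF2 faces CPSF7, which encodes a pre-mRNA 3′ end processing factor, with 12 annotated coding starts from −889 to −93, and the peak reached 868 bp upstream in siControl and 866 bp in siAATF. A read-through gene model (ENSG00000256591) also starts a coding transcript at −68. For such shared promoters the peak cannot be assigned to one of the genes. No other coding gene started in the peaks of SDHB, SDHC, SDHAF1, SDHAF3 and SDHAF4 or within 1 kb of them.

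The SDHA peak has copies elsewhere. Each siControl peak was aligned to the genome, and of the 8 only SDHA matched other places over at least 50% of its length at 80% identity or more, at 4 of them. On chromosome 3 these were the starts of the pseudogenes SDHAP1 (195716571 to 195717527, 84.4% identity), SDHAP2 (195384570 to 195385526, 84.6%) and SDHAP4 (197354161 to 197355117, 84.1%). The last was on chromosome 5 at 1594143 to 1594971 (84.4%), with no annotated start of SDHAP3 or of another SDHA pseudogene in it.

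All 3 pseudogene starts on chromosome 3 had a strong peak in both lists. At SDHAP1 −log10 q reached 93.9 in siControl and 85.7 in siAATF (ranks 99.2 and 99.4), the SDHAP2 peak 91.7 and 84.2 (ranks 99.1 and 99.2), and the SDHAP4 peak 79.7 and 69.9 (ranks 96.3 and 95.8). Like SDHA they ranked lower by fold enrichment, from 63.5 to 66.2 in siControl and from 59.6 to 61.8 in siAATF, and they were wide, from 1250 to 1301 bp in siControl. Each held 3 cores with 1 mismatch, set 52 and 50 bp apart, where SDHA has 4 at 49 bp. The copy on chromosome 5 held 1 such core and no peak in either list; its nearest peaks were 38799 bp away in siControl and 53968 bp away in siAATF. Among these 5 sequences, those with a peak held 3 or 4 cores and the one without held 1. They are not 5 independent cases, because the 3 copies on chromosome 3 are nearly the same sequence.

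Reads from the copies bear on these values. The longest stretch shared without a difference by the SDHA peak and the chromosome 3 copies was 59 to 62 bp, shorter than the 100 cycles read from each end, and with the copy on chromosome 5 it was 98 bp. The chromosome 3 copies were 97.9% to 98.9% identical to each other and shared unbroken stretches of 264 to 356 bp, so that reads from these 3 starts may not be told apart and their separate values are uncertain. How reads matching several places were treated was not given in the sources used here, and exchange of reads between SDHA and its copies was not tested.

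**Figure D3:**
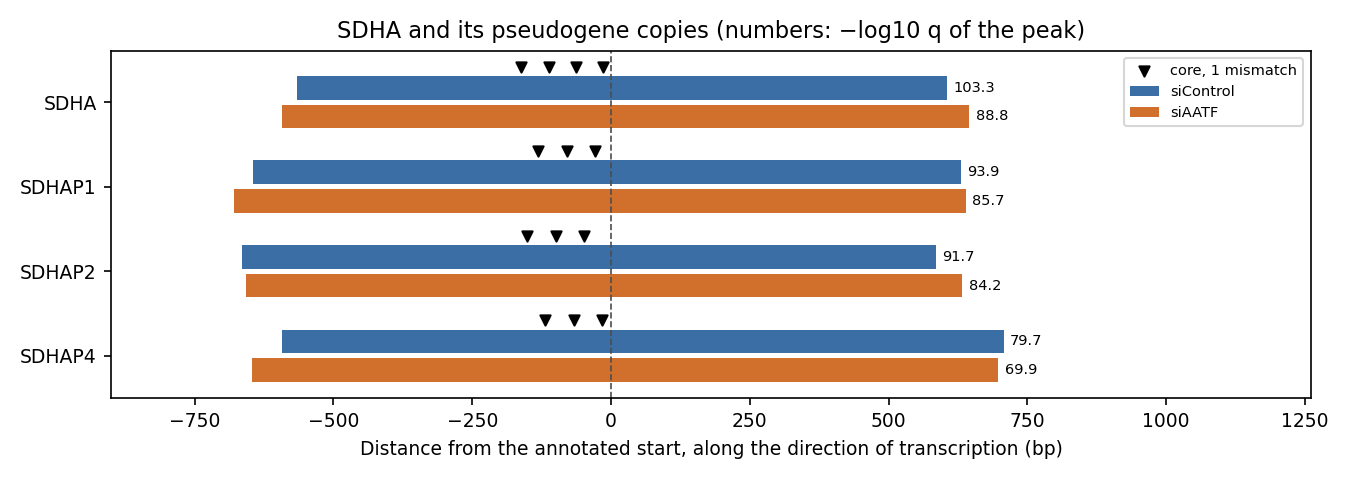
Peak spans at SDHA and at its pseudogene copies in siControl (blue) and siAATF (orange), in bp from the annotated start along the direction of transcription (for a copy, the start furthest upstream). Triangles are cores with 1 mismatch and the numbers at the bars are −log10 q of the peak. SDHA carries 4 cores and the copies 3 each, and −log10 q runs from 69.9 to 103 over the 8 bars.

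Between the lists, the median size of the change in rank by fold enrichment was 4.16 points over the 8 complex II genes. Over all coding genes with a shared promoter peak it was 5.08. The median change in rank by fold enrichment, siAATF minus siControl, was 0.33 points over the 8 genes and 0.20 over the 11608 coding genes with a shared promoter peak. SDHA (−3.09), SDHB (−7.21) and SDHAF3 (−0.54) ranked lower in siAATF, 3 of 8 genes beside 48.7% of coding genes. SDHC (5.23), SDHD (0.35), SDHAF1 (13.7), SDHAF2 (7.30) and SDHAF4 (0.31) ranked higher. SDHAF1 alone differed by more than 10 points, 1 of 8 genes beside 25.8% of coding genes. A change smaller in size than its own was seen in 84.0% of coding genes, so it was not an unusual value in this pair of lists.

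Ranked by −log10 q, the differences were smaller still. The median change was 0.03 points, beside 0.47 in all coding genes, and SDHAF1 (10.1) was again the single gene past 10 points, beside 12.4% of coding genes. SDHA (−0.17), SDHD (−0.14), SDHAF4 (−0.26) and SDHAF3 (0.20) were within 1 point, and SDHB (−1.11), SDHAF2 (1.57) and SDHC (3.99) within 4. SDHD, SDHAF3 and SDHAF4 had opposite signs by the 2 rankings, and no direction is read from them. The median size of the change by fold enrichment was 0.54 points in the genes with a core and 7.30 in the 3 without, and in all coding genes the same medians were 3.12 and 6.12. The classes overlapped by this measure, as SDHB with a core changed by −7.21 points and SDHC without one by 5.23. All 3 members without a core, SDHC, SDHAF1 and SDHAF2, ranked higher in siAATF by both measures. Of 8700 coding genes without a core, 4638 ranked higher by fold enrichment and 4888 by −log10 q. Over all 11608 coding genes with a shared promoter peak the counts were 5957 and 6464. Over the 2908 of them with a core they were 1319 and 1576. The share higher by both measures was not counted.

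**Figure D4:**
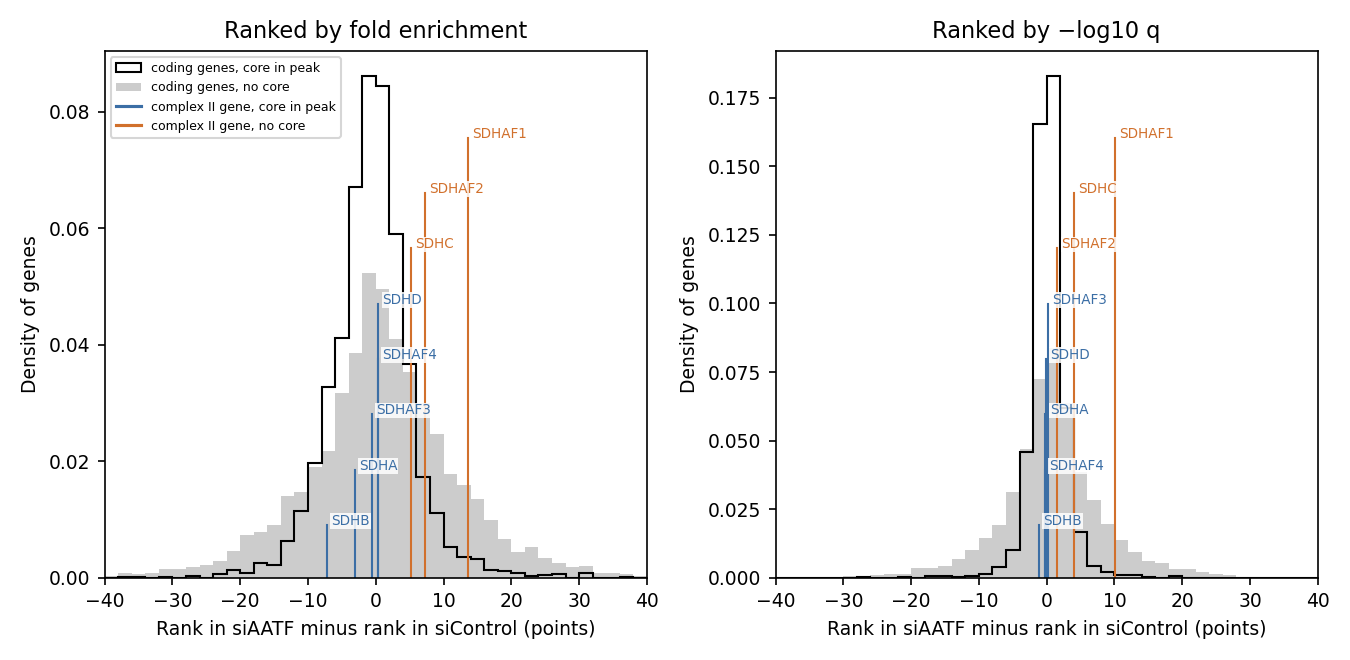
Histograms show the change in percentile rank (siAATF minus siControl, in points) of coding genes with a shared promoter peak, outlined for genes with a core in the siControl peak and grey for the others, by fold enrichment on the left and by −log10 q on the right. Vertical lines mark the complex II genes, blue with and orange without a core; their heights only separate the labels. Beyond 40 points, 25 genes on the left and 3 on the right are not drawn. SDHAF1 lies furthest right in both panels, at 13.7 and 10.1 points.

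The outlines of the peaks were compared as well. The overlap covered 92.1% to 100% of the siControl peak in 7 genes and 63.9% in SDHC. The siAATF peak of SDHC lay wholly within the siControl peak with a width change of −210 bp, of which −186 bp came from the downstream edge. SDHB differed in the other direction, with a siAATF peak 134 bp wider and an upstream edge 90 bp further out. In SDHA, SDHAF3 and SDHAF4 neither edge differed by more than 40 bp, and in SDHD the edges differed by 3 and 18 bp. SDHAF1 had its upstream edge 66 bp nearer to the start in siAATF.

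The neighbours of complex II in metabolism were described from lists of genes. Of 14 TCA cycle genes, 14 had a shared promoter peak, and so did 9 of 9 subunit genes of complex III, which takes the electrons that complex II hands to ubiquinone. For the supply of iron-sulphur clusters and flavin it was 16 of 17 genes. For the ubiquinone pool it was 13 of 15. Among all coding genes the share with a shared promoter peak was 58.6%. PDSS2, a subunit of the enzyme that makes the side chain of ubiquinone, had a promoter peak in siAATF only, and COQ8B had one in each list that did not overlap. The median rank by fold enrichment in siControl was 71.5 for the TCA cycle, 65.8 for cluster and flavin supply, 79.8 for the ubiquinone pool and 74.5 for complex III, against 83.7 for complex II. In siAATF the medians were 76.7, 72.3, 83.2 and 75.7 in the same order, against 83.7. By −log10 q complex III had the higher median in both lists, 89.3 in siControl and 91.2 in siAATF, against 87.9 and 88.01 for complex II. The other 3 lists lay lower by that measure, from 70.1 to 79.8 in siControl and from 71.9 to 79.4 in siAATF. With up to 1 mismatch, the siControl peaks of 5 of 14 TCA cycle genes and 6 of 9 complex III genes held the core. For genes with a siControl peak it was 4 of 16 in the supply list and 3 of 14 in the ubiquinone list. The share was 24.2% of all coding genes with a siControl promoter peak, near that of the supply and ubiquinone lists.

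The median size of the rank change by fold enrichment was 5.24 points for the TCA cycle, 3.08 for cluster and flavin supply, 6.45 for the ubiquinone pool and 2.84 for complex III, against 4.16 for complex II. The genes at the ends of each list were as follows. FH, which encodes fumarase, the enzyme after complex II in the cycle, ranked lower in siAATF by fold enrichment, 62.1 against 50.7, a change of −11.5 points. SUCLG1, a subunit of the enzyme before it, ranked 18.6 points higher, 41.96 against 60.5. COQ5, a methyltransferase of ubiquinone synthesis, had the lowest change in the 4 lists (rank 77.6 in siControl and 33.2 in siAATF), in a peak whose midpoint lay at −5382 bp from its canonical start, at another annotated start. BOLA3, a factor for iron-sulphur proteins, had the highest (33.9 and 70.8). COQ4 ranked 14.2 points higher and SLC25A32, the mitochondrial folate and flavin carrier, had a change of −5.34 points, the lowest of its list. In complex III the extremes were CYC1, cytochrome c1, at −18.7 points and UQCRQ at 12.7 points. The siControl peaks of all 8 of these genes lacked a core with up to 1 mismatch, as did 75.8% of coding genes with a siControl promoter peak. They are the extremes of their lists by choice, and none of the changes has a replicate.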

How the data were processed

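NRF-1 ChIPmentation of U251 cells with siControl or siAATF was analysed from 1 broadPeak list per condition. Per the labels and the study's methods, Bowtie2 alignment to hg19 and MACS2 peak calling ran in an ATAC-seq pipeline at its defaults. Whether duplicate experiments were pooled was not given. The authors deposited positions in bp, each peak's fold enrichment (a ratio) and its −log10 values of p and of q, and a display score that was not used.

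Overlaps of at least 1 base, percentile ranks within each list and word searches were computed with Python 3.11.15, numpy 2.4.6, pandas 2.3.3 and pysam 0.24.0 on GRCh37 and GENCODE release 44 lifted to it, and the functions were tested on simulated data. Copies were sought with blastn 2.17.0. Where a gene had several promoter peaks, the one with the highest −log10 q was used. Named genes were the 8 members, genes starting within 1 kb of their peaks, SDHA pseudogenes, and from each pathway list the genes without a shared peak and those with the lowest and highest rank change. One gene that this rule names is not reported here. The members and lists were chosen with earlier results of these data known. The depth is unknown, and no test between conditions was possible with 1 sample each.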

Additional observations from a re-analysis of the deposited data

How the results depend on the processing

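No paired analysis was possible because each condition had a single list. Of 54 values under alternatives, 32 stayed close to the reported value, 22 moved and 0 changed sign. Close meant within the 95% binomial interval of a rank, or within 1.5 times for a count. For the median rank change it meant within the interval margins of both median ranks added together. These intervals served only as a yardstick and do not measure the spread of a rank. Most of the values that moved came from ranking by −log10 q in place of fold enrichment. Only the median rank change could change sign, and the changes of single genes were not among the 54 values. The alternative with up to 2 mismatches, under which 7 genes held a core, was chosen after seeing the data. Promoters of 500 bp or 2 kb, the canonical start alone, reciprocal overlap of 50% and taking the peak with the highest fold enrichment changed no value. At a −log10 q of at least 10, 7 genes kept a peak in both lists, SDHC being the one lost.

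With −log10 q of at least 5 the median ranks were 75.9 in siControl and 75.6 in siAATF, since weak peaks leave the lists. The core was found in 1 gene when exact and in 3 genes within 100 bp of the canonical start. Ranked by −log10 q, the medians were 87.9 and 88.01. The ranks in siControl and siAATF were then 99.9 and 99.7 for SDHA, 90.8 and 89.7 for SDHB, 45.02 and 49.01 for SDHC, 86.2 and 86.1 for SDHD, 53.3 and 63.4 for SDHAF1, 84.8 and 86.3 for SDHAF2, 89.7 and 89.9 for SDHAF3, and 92.9 and 92.6 for SDHAF4. The unknown depth limits what a difference between the lists can show.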

Other observations

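The closest other peak to SDHB in siControl was weak (fold enrichment 5.96, −log10 q 6.58) and lay upstream, 8862 bp from the promoter peak, at 17389985 to 17390388 on chromosome 1; in siAATF the closest was 41405 bp away. SDHAF1 had a neighbour peak 7424 bp away in siControl, with rank 60.8 by fold enrichment, and 7502 bp away in siAATF, with rank 32.6, a difference in the opposite direction to that of the SDHAF1 promoter peak. SDHAF4 and SDHAF3 were the most isolated, with the nearest other peak at 100022 and 99977 bp in siControl and at 99898 and 92367 bp in siAATF.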
